A study of Homo sapiens with 6 samples.

Results

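The Wnt ligands, receptors and antagonists are the proteins that start, carry and restrain Wnt signalling at the cell surface. They were chosen by gene symbol, in a rule that uses no measured value but was written with earlier results of these data known. It takes every protein-coding WNT and FZD gene, and a set of named co-receptors, alternative receptors, R-spondin receptors, ubiquitin ligases, feedback genes and secreted inhibitors. The rule found 43 of the 30330 genes in the deposited tables, 17 of them WNT ligands, 9 Frizzled receptors and 17 other named genes. FZD10, WNT1, WNT6, SFRP1 and LGR5 fit the rule by symbol, but no protein-coding gene among the 30330 was matched to them, so they were not analysed. RNA was sequenced from the lung adenocarcinoma cell line NCI-H1975, of human origin and with mutant EGFR, and from H1975/OSI, a line derived from it that resists osimertinib, an inhibitor of the EGFR kinase. The control group is 3 libraries of NCI-H1975 with no treatment named, and the resistant group is 3 libraries of the single line H1975/OSI, obtained by stepwise exposure to osimertinib at 0.03, 0.1, 0.3, 1 and finally 3 µM over 7 months. The titles call the resistant libraries Drug, and do not say whether osimertinib was present at harvest. The comparison asks which transcripts differ in a line made resistant to the drug.

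Wnt proteins are secreted lipid-modified ligands that bind Frizzled receptors. Together with the co-receptors LRP5 and LRP6, this binding blocks the destruction complex, so that beta-catenin accumulates, enters the nucleus and activates genes with TCF/LEF factors. Other ligands, with WNT5A as the best known, act largely through ROR and RYK receptors and the cytoskeleton, without beta-catenin. Several members are brakes: DKK1 blocks LRP5 and LRP6, RNF43 and ZNRF3 remove Frizzled from the membrane, and AXIN2 and NKD1 are themselves induced by the pathway and feed back on it. In the lung, Wnt signals take part in airway branching and in the upkeep of alveolar progenitor cells.

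Values are normalized read counts, that is, reads per gene divided by a size factor for each library, given as mean ± SD (n = 3 per group). Libraries held 15174126 to 16588479 reads. A log2 fold change is resistant minus control on the log2(value + 1) scale, which understates changes of genes with few reads. It is given with its standard error or its 95% interval, and with the adjusted p of limma-trend over all 24560 genes tested (those at 1 or more in at least 3 libraries), with a threshold of 0.05. The labels do not state whether replicates came from different cultures. The p-values therefore reflect spread among these libraries alone, which may be technical. In bulk RNA, fewer expressing cells and less RNA per cell cannot be told apart. Resistant library 1 stood apart from resistant 2 and 3: against them the chi-square per gene reached 12.1 and 13.5, compared with 2.42 between resistant 2 and 3 and 2.55 to 3.93 among controls. Epithelial markers were present, with 10 of 11 listed genes in the tables; their summed level was 60121 to 63654 in control and 42922 to 50321 in resistant libraries. In that list 2 genes were higher and 5 lower in the resistant line, with EPCAM at 379 in control and 17.6 in resistant libraries. For this list and the next, the background is 20.4% of all genes tested higher and 21.1% lower. Fibroblast markers (5 of 7 in the tables) summed to 111 to 164 in control and 118 to 158 in resistant libraries. Of these genes, 2 were higher and 2 lower. LUM was at 0 in every control library, so it entered the test only through the resistant libraries. COL6A3 was at 28.3 in control and 2.21 in resistant libraries. Blood and endothelial markers (5 of 8 in the tables) summed to 294 to 330 and 564 to 751. The larger sum came from CDH5 (126 in control and 579 in resistant libraries), while PECAM1 was lower (181 and 83.3). The part of these marker shifts in the results below was not tested.

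Levels of many Wnt ligands and receptors differed between the resistant line and NCI-H1975, in both directions. WNT5A was 10.3 times as high, FZD7 and FZD1 more than 2-fold higher and AXIN2 3.52 times as high, while WNT7B stood at 0.292 times its control level, and FZD2, LGR4 and DKK1 fell. Of the 43 members, 39 passed the filter on low values, and 23 of these passed the test, 12 higher and 11 lower in the resistant line. WNT11 passed the filter only through the resistant libraries, so its call carries no weight; without it, 22 of 38 tested members passed, 11 higher and 11 lower, 6 and 4 of them at 2-fold or more. Across all genes tested, 41.5% passed, 20.4% higher and 21.1% lower, against 59.0% of the tested members and 57.9% without WNT11. All members are protein-coding, while the genes tested also include antisense genes and pseudogenes. The part of gene type and read depth in this difference was not tested. At 2-fold or more, 7 members were higher and 4 lower, where 7.86% and 5.72% of all genes were. The median log2 fold change of the tested members was -0.03 (-0.08 without WNT11), beside 0.01 for all genes. That of the members moved to -0.15 under edgeR, -0.15 under DESeq2 and -0.16 with libraries rescaled to a common median. The median of all genes passed the margin set for such a move under the rescaling, but not under edgeR or DESeq2. Groups did not overlap for 25 of the 39, where 50.1% of all genes did not. WNT11 is among these 25 and carries no weight there either. Rescaling each library to a common median moved the median of all genes to -0.12 and the members' calls to 9 higher and 13 lower, and the split between the directions is therefore tied to how libraries are scaled. Under edgeR, 11 members were higher and 10 lower, and 40.9% of all genes passed (20.1% higher, 20.8% lower). The higher members under the rescaling and under edgeR include WNT11. Without resistant 1, the limma counts were 10 higher and 9 lower, and those of all genes 4873 and 5325.

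**Figure D1:**
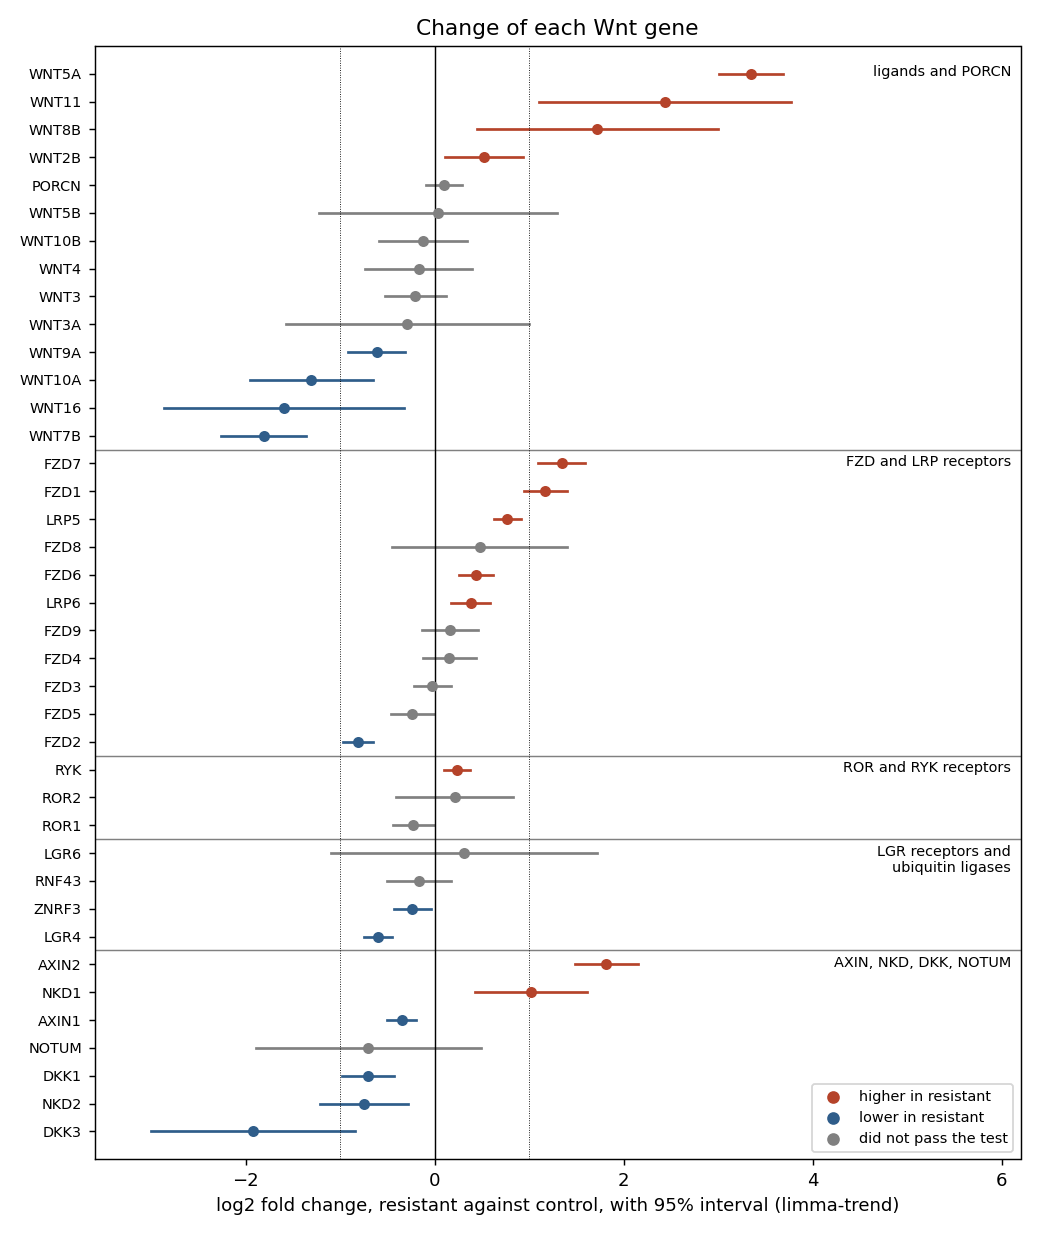
Log2 fold change (resistant minus control, log2(value + 1) scale) with its 95% interval for each of the 39 tested members, grouped by role and coloured by whether it passed the test. WNT5A has the highest value (3.35) and DKK3 the lowest (-1.92).

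WNT5A, the prototype of ligands that signal without beta-catenin, stood furthest apart among the ligands. It was at 37.0, 33.3 and 52.0 in control libraries and at 478, 379 and 401 in resistant ones. Every resistant library lay far above every control library, and the mean went from 40.8 ± 9.95 to 419 ± 52.1 (a log2 fold change of 3.35 ± 0.16 SE, limma adjusted p = 5.89e-14). The value stayed between 3.22 and 3.54 under all other settings tried. The gene (ENSG00000114251) lies on chromosome 3 from 55465715 to 55490539, minus strand, on GRCh38, and its 610-base overlap with the antisense gene WNT5A-AS1 involves a partner with 14.2 normalized read counts in resistant and 2.74 in control libraries. Whether reads were counted by strand is not given in the sources used here, so reads of such pairs cannot be told apart, which also concerns FZD4, FZD6, LRP6, LGR4, ROR1, RYK, RNF43, ZNRF3, NKD1, DKK1, WNT2B, WNT4 and WNT5B. The set of RefSeq (GRCh38.p14) windows used here holds 2 around starts within WNT5A (250 bases before to 50 after). Both are shown because this is the member with the largest change. They contain neither a TCF/LEF motif (CTTTGAT or CTTTGAA) nor an AP-1 motif (TGANTCA) on either strand. The first is at chr3:55487257-55487556, and the second, downstream of it in the direction of transcription, at chr3:55481349-55481648, both read on the minus strand, 5′ to 3′.
WNT5A upstream window: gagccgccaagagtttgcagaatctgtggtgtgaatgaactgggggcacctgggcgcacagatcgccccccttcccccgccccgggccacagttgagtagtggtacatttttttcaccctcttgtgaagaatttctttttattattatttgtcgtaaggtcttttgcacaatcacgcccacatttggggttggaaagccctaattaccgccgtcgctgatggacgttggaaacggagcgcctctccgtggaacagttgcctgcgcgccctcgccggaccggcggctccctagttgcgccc
WNT5A downstream window: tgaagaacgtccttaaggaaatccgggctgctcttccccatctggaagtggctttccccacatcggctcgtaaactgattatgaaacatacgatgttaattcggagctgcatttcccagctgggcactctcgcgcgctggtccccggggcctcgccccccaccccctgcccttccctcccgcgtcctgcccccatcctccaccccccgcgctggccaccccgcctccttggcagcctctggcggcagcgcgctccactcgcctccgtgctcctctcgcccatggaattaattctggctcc

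WNT7B, a ligand of the beta-catenin route made by lung epithelium, was the most abundant ligand of the control line and the member with the next largest change among well-counted ligands. It was at 1185, 1290 and 1128 in control libraries and at 461, 323 and 266 in resistant ones. The groups were widely separated, with resistant 1 the highest of its group. The mean fell from 1201 ± 82.1 to 350 ± 100 (a log2 fold change of -1.81 ± 0.19 SE, adjusted p = 0.000196; -2.03 without resistant 1). WNT7B (ENSG00000188064) lies on chromosome 22 from 45920362 to 45977129, minus strand. WNT10A, a ligand known from tooth and skin appendage development, was at 37.0, 39.5 and 59.8 in control and 28.6, 16.6 and 10.9 in resistant libraries. It fell by 1.31 ± 0.31 SE on the log2 scale (adjusted p = 0.00156), a call lost with limma without trend (adjusted p = 0.0620). WNT9A, a ligand of joint and skeletal development, fell by a smaller amount, from 218 ± 22.8 to 144 ± 30.7 (log2 fold change -0.61, adjusted p = 0.00133), and lost its call in the same setting (adjusted p = 0.0586).

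WNT11, WNT8B and WNT2B were higher from low or moderate levels. WNT11, a ligand of convergent extension movements, was at 0, 0 and 0.964 in control and 3.06, 4.61 and 12.8 in resistant libraries. This is 1 read over the controls against 21 over the resistant libraries. No p is given for WNT11, since it could enter the test only by being high in the resistant libraries. WNT8B, a ligand of the developing forebrain, was at 2.05, 5.20 and 0 in control and 8.16, 6.46 and 8.88 in resistant libraries (log2 fold change 1.72 ± 0.62 SE, adjusted p = 0.0279). It no longer passed in 6 of 15 other settings, among them without control 3 (1.01, adjusted p = 0.165) or resistant 3 (1.63, adjusted p = 0.0745) and under edgeR (adjusted p = 0.0826) and DESeq2 (adjusted p = 0.143). WNT2B, a ligand that helps specify the early lung, went from 47.5 ± 3.99 to 68.8 ± 9.93 (log2 fold change 0.52, adjusted p = 0.0398), which did not hold in 9 of 15 other settings. It overlaps ST7L on the opposite strand, at 99.5 in resistant and 115 in control libraries.

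WNT16, a ligand of bone and joint tissue, was at 8.21, 5.20 and 5.78 in control and 0, 3.69 and 1.97 in resistant libraries. All control libraries lay above all resistant ones, yet with so few reads the fall (log2 fold change -1.60 ± 0.61 SE, adjusted p = 0.0399) lost its call in 9 of 15 other settings. Without resistant 1 it was -0.96 (adjusted p = 0.200). The remaining ligands did not pass the test. WNT3 was at 114 ± 11.8 in control and 99.1 ± 12.4 in resistant libraries (95% interval of the log2 fold change -0.53 to 0.12), and WNT10B at 46.1 ± 9.65 and 41.6 ± 0.196 (-0.59 to 0.34). WNT4 was at 28.1 ± 5.50 and 24.6 ± 2.04. WNT3A and WNT5B were at or below 3.08 in both group means. WNT2, WNT7A, WNT8A and WNT9B had at most 3 reads in a whole group, and were not tested. The resistant group had 0 reads of WNT2 and WNT7A, which allows up to 3 reads over the group. PORCN, the acyltransferase that adds the lipid every Wnt ligand needs for secretion, was at 450 ± 27.5 in control and 483 ± 40.2 in resistant libraries (95% interval -0.09 to 0.29, adjusted p = 0.414).

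**Figure D2:**
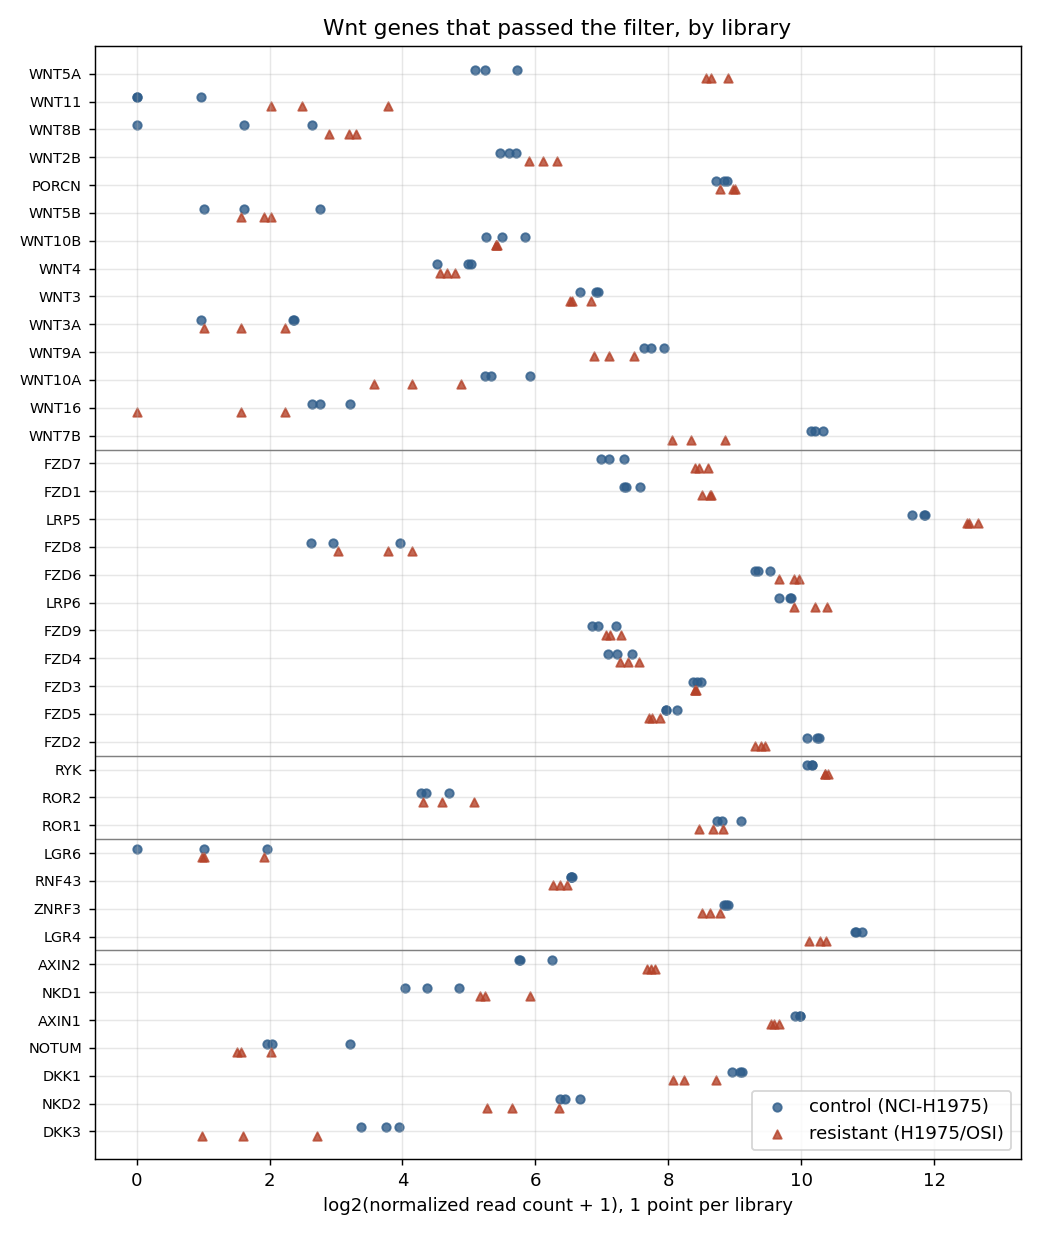
Level of each of the 39 tested members in every library, as log2(normalized read count + 1), with circles for control and triangles for resistant libraries and lines between the role groups. The resistant libraries of WNT5A (379 to 478) sit far above its control libraries (33.3 to 52.0), and those of WNT7B (266 to 461) far below (1128 to 1290).

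Among the Frizzled receptors, FZD7, FZD1 and FZD6 rose and FZD2 fell, out of 9 measured and tested. These calls are 44.4% of the 9, close to the 41.5% of all genes tested that passed. FZD7, a receptor linked to stem cell upkeep, was at 138, 160 and 126 in control and 339, 386 and 352 in resistant libraries. Its groups were well apart, and the mean rose from 141 ± 17.2 to 359 ± 24.3 (a log2 fold change of 1.34 ± 0.12 SE, adjusted p = 2.22e-09). FZD7 (ENSG00000155760) lies on chromosome 2 from 202034587 to 202038445, plus strand. FZD1, a receptor of the same subfamily, was at 190, 161 and 163 in control and 363, 396 and 399 in resistant libraries. The libraries within each group were close together, and the mean rose from 171 ± 16.2 to 386 ± 19.8 (a log2 fold change of 1.17 ± 0.11 SE, adjusted p = 6.09e-09). FZD2, the third receptor of that subfamily and known as a receptor of WNT5A, moved the other way. It was at 1208, 1230 and 1084 in control and 630, 675 and 697 in resistant libraries, with no overlap (log2 fold change -0.81 ± 0.08 SE, adjusted p = 6.37e-09). FZD2 (ENSG00000180340) lies on chromosome 17 from 44557459 to 44559570.

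FZD6, a receptor of planar cell polarity, was at 631, 653 and 740 in control and 810, 948 and 994 in resistant libraries. It rose by less than FZD7 and FZD1, from 675 ± 57.6 to 917 ± 96.1 (a log2 fold change of 0.44 ± 0.09 SE, adjusted p = 0.000211). FZD3, also of planar polarity, was at 345 in control and 339 in resistant libraries (95% interval -0.22 to 0.17). FZD4, the Norrin receptor, was at 153 and 170 (adjusted p = 0.399) and overlaps PRSS23, a far more abundant gene on the opposite strand. FZD5 was at 258 ± 17.5 and 219 ± 14.0 without overlap (log2 fold change -0.24, adjusted p = 0.0986), and passed the test when libraries were rescaled to a common median (-0.37, adjusted p = 0.0112). FZD8 (8.81 and 12.2) and FZD9 (128 and 142) did not pass the test (adjusted p = 0.436 and 0.409). FZD1 (ENSG00000157240) lies on chromosome 7 from 91264364 to 91271326. The window around its RefSeq start is shown because FZD1 is a called receptor with a window in the set used here. It spans chr7:91264183-91264482 on the plus strand and contains neither motif.
FZD1 window: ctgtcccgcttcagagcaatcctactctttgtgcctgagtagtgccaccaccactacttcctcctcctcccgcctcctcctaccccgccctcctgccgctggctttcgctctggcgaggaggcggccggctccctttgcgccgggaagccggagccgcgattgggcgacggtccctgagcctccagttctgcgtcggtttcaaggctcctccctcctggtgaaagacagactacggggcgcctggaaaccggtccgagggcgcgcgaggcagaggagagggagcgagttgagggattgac

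Both co-receptors of the beta-catenin route were higher. LRP5 was at 3742, 3692 and 3250 in control and 6498, 5913 and 5770 in resistant libraries. No library of either group came near the other group, and the mean rose from 3561 ± 271 to 6061 ± 386 (a log2 fold change of 0.77 ± 0.07 SE, adjusted p = 2.09e-09). LRP5 (ENSG00000162337) lies on chromosome 11 from 68312609 to 68449275. LRP6, which overlaps the little-expressed gene BCL2L14, was at 906, 813 and 916 in control and 947, 1179 and 1333 in resistant libraries, where resistant 1 was close to the controls (log2 fold change 0.38 ± 0.10 SE, adjusted p = 0.00447). RYK, a kinase-dead Wnt receptor, rose slightly from 1123 ± 33.0 to 1324 ± 21.4 (log2 fold change 0.24, adjusted p = 0.0065). LRP6 and RYK lost their calls when libraries were rescaled to a common median (log2 fold changes 0.25 and 0.10) and under limma without trend (adjusted p = 0.121 and 0.0706). ROR1, a receptor of WNT5A, was at 545, 426 and 448 in control and 353, 408 and 452 in resistant libraries. The groups overlapped, and the difference did not pass the test (95% interval -0.45 to -0.01, adjusted p = 0.0966), though it did with the common median (-0.36) and without resistant 3 (-0.31). ROR2, the other WNT5A receptor of that family, was at 20.9 and 24.8 (adjusted p = 0.617).

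LGR4 binds R-spondins and thereby protects Frizzled receptors from removal by RNF43 and ZNRF3. It was at 1813, 1802 and 1928 in control and 1105, 1239 and 1319 in resistant libraries. All resistant libraries lay below all controls, and the mean fell from 1848 ± 70.0 to 1221 ± 108 (a log2 fold change of -0.60 ± 0.07 SE, adjusted p = 3.35e-07). LGR6, its low-level relative, was at 1.31 and 1.59. ZNRF3 was at 456, 468 and 477 in control and 361, 395 and 437 in resistant libraries. The small fall (log2 fold change -0.23 ± 0.09 SE, adjusted p = 0.0463) lost its call in 9 of 15 other settings. RNF43 (91.8 ± 0.591 and 81.9 ± 5.87) was not called (95% interval -0.50 to 0.17, adjusted p = 0.456).

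AXIN2, a destruction complex scaffold that is widely read as a sign of active beta-catenin signalling, rose. It was at 53.4, 74.8 and 53.0 in control and 212, 203 and 223 in resistant libraries. Each resistant library held more than every control library by a wide margin, and the mean rose from 60.4 ± 12.5 to 213 ± 9.96 (a log2 fold change of 1.82 ± 0.16 SE, adjusted p = 1.77e-09). AXIN2 (ENSG00000168646) lies on chromosome 17 from 65528563 to 65561647, minus strand. AXIN1, its constitutive relative, fell from 990 ± 31.3 to 777 ± 35.0 (a log2 fold change of -0.35 ± 0.07 SE, adjusted p = 0.000419). NKD1, a Dishevelled-binding feedback gene, was at 27.7, 19.7 and 15.4 in control and 36.7, 35.1 and 59.2 in resistant libraries. It rose by 1.02 ± 0.29 SE on the log2 scale (adjusted p = 0.00556), a call lost without resistant 3 (0.79, adjusted p = 0.0569) and under limma without trend (adjusted p = 0.0593). Its relative NKD2 was at 86.3, 101 and 81.9 in control and 80.6, 48.9 and 37.5 in resistant libraries. NKD2 fell (log2 fold change -0.74 ± 0.22 SE, adjusted p = 0.00987), with resistant 1 near the controls, and the call was lost without resistant 3 (-0.50) or control 2 (-0.66) and under limma without trend (adjusted p = 0.127).

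Both Dickkopf genes among the members were lower in the resistant line. DKK1, which binds LRP5 and LRP6 and keeps Wnt ligands from using them, was at 548, 542 and 498 in control and 421, 269 and 300 in resistant libraries. The highest resistant library still lay below the lowest control, and the mean fell from 530 ± 27.4 to 330 ± 80.6 (a log2 fold change of -0.71 ± 0.13 SE, adjusted p = 0.000224; -0.90 without resistant 1). DKK3, a divergent member of the Dickkopf family, was at 14.4, 9.35 and 12.5 in control and 2.04, 5.54 and 0.987 in resistant libraries. It fell by 1.92 ± 0.52 SE on the log2 scale (adjusted p = 0.00434), on 36 control and 9 resistant reads. NOTUM, an enzyme that strips the lipid from Wnt ligands, was at 4.74 and 2.29 (95% interval -1.89 to 0.49, adjusted p = 0.361). DKK1 (ENSG00000107984) lies on chromosome 10 from 52314296 to 52318042. Its RefSeq window, at chr10:52314031-52314330 on the plus strand, is shown because it alone among the member windows searched holds the TCF/LEF motif. The capitals mark CTTTGAA, 95 bases before the start. The set of windows used here, around RefSeq starts, covered 30 of the 43 members, with 37 windows in all. Of these 37, 1 holds the motif, beside 6.86% of 35116 windows of the same length over all genes. The set had no window for AXIN2, NKD1, ZNRF3, LRP6, FZD2, FZD3, FZD6, FZD7, WNT7B, WNT10B, WNT11, DKK3 or NOTUM. Those members were therefore not searched for either motif. An AP-1 motif was in 1 member window, that of RNF43, beside 7.71% of all windows. The members' windows had a median GC content of 67.0% and 29 CpG pairs, beside 62.3% and 21 in windows of all coding genes.
DKK1 window: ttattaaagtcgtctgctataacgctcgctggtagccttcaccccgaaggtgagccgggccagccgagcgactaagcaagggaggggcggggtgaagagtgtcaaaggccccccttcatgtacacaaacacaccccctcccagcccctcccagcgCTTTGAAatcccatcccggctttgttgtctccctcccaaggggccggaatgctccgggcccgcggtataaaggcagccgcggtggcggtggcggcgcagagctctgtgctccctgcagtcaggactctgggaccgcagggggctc

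Levels can be compared between genes once divided by the gene's exon length in kilobases. On that scale LRP5 was the most abundant member in both groups, at 578 ± 43.9 in control and 983 ± 62.6 normalized read counts per kilobase in resistant libraries, followed by FZD2 at 556 ± 37.2 and 316 ± 16.2. In the control line LGR4 (291 ± 11.0), DKK1 (240 ± 12.4) and WNT7B (238 ± 16.3) came next, and the last 2 did not differ beyond their spread. In the resistant line the third place went to FZD6 (226 ± 23.6) and the fourth to LGR4 (193 ± 17.0), whose intervals of mean ± SD overlap. WNT7B moved to place 11 (69.3 ± 19.8) and WNT5A from place 27 (5.51 ± 1.35) to place 15 (56.7 ± 7.04), and these ligands did not differ beyond their spread in the resistant line. Of the summed WNT level per kilobase, WNT7B made up 64.1 ± 1.57% in control and 30.3 ± 4.41% in resistant libraries, and WNT5A 1.50 ± 0.421% and 25.1 ± 1.22%. The shares of WNT9A were close, at 14.8 ± 0.877% and 15.9 ± 1.29%. The sum itself was 371 ± 16.7 per kilobase in control and 226 ± 32.4 in resistant libraries, which do not overlap, so a share can stay level while the gene falls. Of the summed Frizzled level, FZD2 made up 60.1 ± 2.21% in control and 37.9 ± 0.797% in resistant libraries. FZD6 went from 18.0 ± 2.12% to 27.0 ± 1.21%, FZD7 from 3.96 ± 0.392% to 11.2 ± 0.566% and FZD1 from 2.66 ± 0.225% to 6.65 ± 0.0883%. The summed Frizzled level was 924 ± 28.8 per kilobase in control and 834 ± 53.4 in resistant libraries. These shares and sums are descriptions and were not tested.

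**Figure D3:**
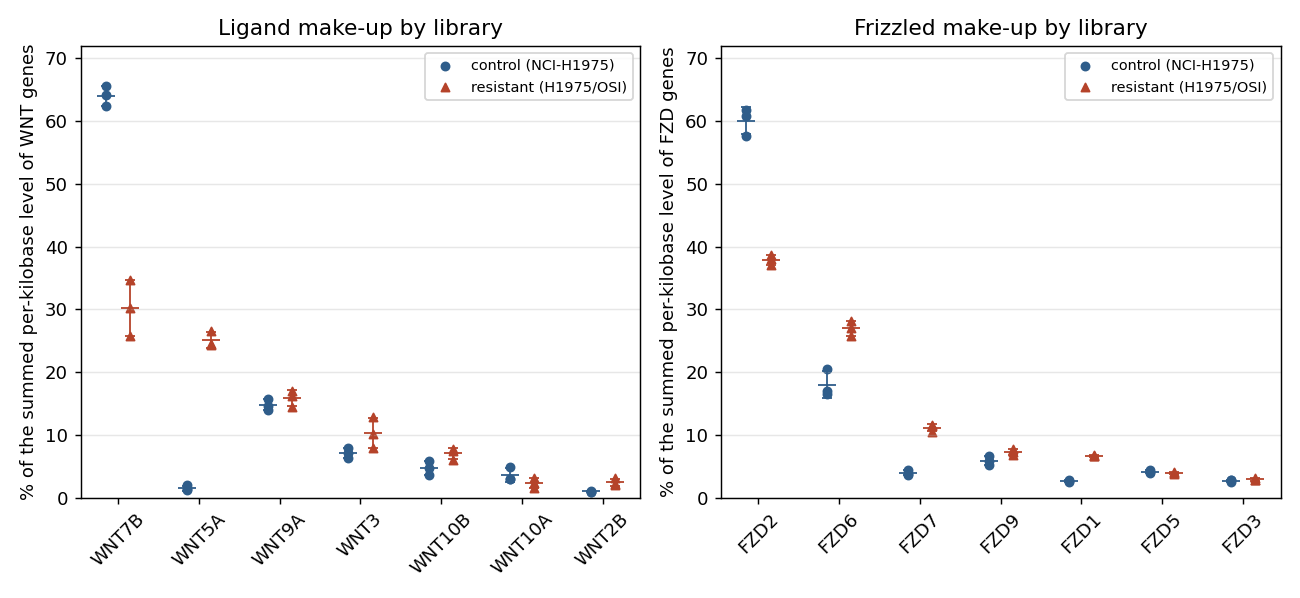
Share of the summed level per kilobase, in percent, taken by the 7 leading ligands (WNT genes, left) and the 7 leading receptors (FZD genes, right), with 1 point per library and bars for mean and SD. WNT7B takes 62.4 to 65.5% of the ligand sum in control libraries and 25.8 to 34.7% in resistant ones, where WNT5A takes 24.3 to 26.5%.

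Some members moved against the genes beside them. For each tested member, the median log2 fold change of up to 50 tested neighbours, 25 on each side of the same chromosome, was taken as a description of its region. The background for neighbour counts is 20.4% of all genes tested higher and 21.1% lower. Around AXIN2 that median was -0.75, with 1 of 50 neighbours higher and 23 lower, while AXIN2 itself was 1.82 higher. LRP5 (0.77) and WNT8B (1.72) were likewise higher within regions whose medians were -0.33 and -0.43. FZD2 (-0.81) lay in a region with a median of -0.50 and 24 lower neighbours, and NKD2 (-0.74) in one at -0.30. RNF43 stood above its region, at -0.16 where the median was -0.77 and 29 of 50 neighbours were lower. WNT16 (-1.60, on few reads) was lower within a region with a median of 0.33, with 17 neighbours higher and 2 lower. FZD1 (1.17) was in a region with a median of 0.26. Regions around WNT5A (-0.04), WNT7B (0.07), FZD7 (-0.06), WNT10A (0.02), LGR4 (0.08) and DKK1 (-0.01) were near 0. The part of regional shifts in the members' values was not tested.

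**Figure D4:**
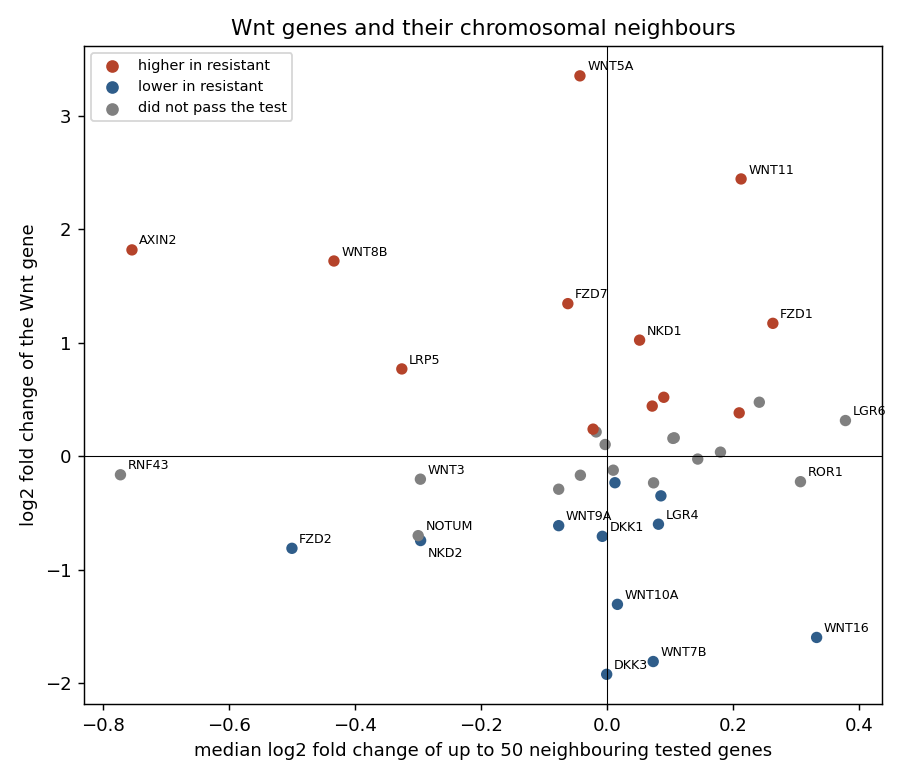
Log2 fold change of each tested member (vertical axis) against the median log2 fold change of its up to 50 chromosomal neighbours (horizontal axis), coloured by whether the member passed the test. AXIN2 sits at the upper left, 1.82 above a neighbour median of -0.75, while WNT5A (3.35) and WNT7B (-1.81) have neighbours near 0.

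The rest of the pathway was taken from 6 lists covering 117 genes, of which 107 were in the tables and 103 were tested. Of these, 34 were higher and 32 lower, beside 20.4% and 21.1% of all genes, with a median log2 fold change of 0.02. At 2-fold or more, 11 were higher and 7 lower, beside 7.86% and 5.72% of all genes. The same shares of all genes are the background for each list that follows. Rescaling to a common median turned these calls into 28 higher and 42 lower. Among partners in secretion and at the cell surface, 7 of 13 tested genes rose and 4 fell. RSPO4, an R-spondin ligand of LGR4, rose from 3.02 ± 2.05 to 11.7 ± 1.33 (log2 fold change 1.80), and KREMEN1, a DKK1 receptor, from 483 ± 28.3 to 1010 ± 100 (1.06). WLS, the carrier that brings Wnt ligands to the cell surface, fell from 1039 ± 57.6 to 825 ± 9.47 (-0.33). The other falls were NDP, the Norrin ligand (-1.94, on few reads and lost in 7 other settings), TMEM198 (-0.70, overlapping CHPF) and the glypican GPC1 (-0.29, lost under limma without trend). Of the other antagonists, 1 of 9 rose and 1 fell: SFRP4, a secreted Frizzled-related protein, went from 5.30 ± 2.97 to 16.9 ± 4.74 (1.57, overlapping EPDR1), and IGFBP4 from 410 ± 44.3 to 134 ± 10.3 (-1.60).

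Inside the cell, 6 of 23 tested genes of the destruction complex and Dishevelled list rose and 11 fell (median -0.14). RNF146 and TNKS, which mark AXIN proteins for degradation, rose by 0.74 and 0.52 on the log2 scale. FRAT1 and FRAT2, which bind GSK3, showed the largest falls of that list, from 53.5 ± 7.16 to 24.6 ± 6.63 (-1.11) and from 242 ± 15.5 to 123 ± 23.1 (-0.99). CTNNB1, which encodes beta-catenin and overlaps ULK4, fell from 6280 ± 106 to 4246 ± 221 (-0.57, adjusted p = 5.57e-08), and APC from 1077 ± 36.2 to 713 ± 77.5 (-0.60); these 2 are named here after their values were seen. Of 16 tested TCF/LEF factors and cofactors, 4 rose and 3 fell (median 0.06). The repressive members TLE4 and TCF7L1 rose most, TLE4 from 148 ± 13.1 to 537 ± 56.0 (1.86) and TCF7L1 from 170 ± 12.0 to 536 ± 97.4 (1.64), followed by the cofactors PYGO1 (0.66) and BCL9L (0.29, lost with the common median and under limma without trend). TCF7, an activating factor of the family that also overlaps SKP1, fell from 211 ± 23.7 to 59.4 ± 6.19 (-1.81), and the cofactors CTBP2 (-0.36, overlapping ZRANB1) and PYGO2 (-0.27, overlapping SHC1 and lost under limma without trend) fell by less.

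Of 14 tested target genes outside the members, 5 rose and 7 fell (median -0.28). SP5, a direct target and feedback repressor, was at 60.6, 71.7 and 49.2 in control and 130, 150 and 140 in resistant libraries (log2 fold change 1.21 ± 0.17 SE, adjusted p = 3.17e-06). The others that rose were MMP7, a secreted protease (1.77, on few reads), VEGFA (1.31), SOX9 (0.77) and PPARD (0.33, lost with the common median and under limma without trend). VEGFA was at 24499 in resistant 1 and at 15756 and 15481 in the other resistant libraries. CCND1, cyclin D1, which overlaps LTO1, fell from 5404 ± 133 to 1225 ± 76.8 (-2.14), and TCF7 is a target as well. Of 29 tested planar polarity and non-canonical genes, 11 rose and 7 fell (median 0.12). NFATC4, a calcium-regulated transcription factor, rose from 108 ± 10.9 to 353 ± 79.4 (1.68). NFATC2 fell by 0.85 and PRICKLE1, a core polarity gene that overlaps PPHLN1, by 0.67 on the log2 scale.

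**Figure D5:**
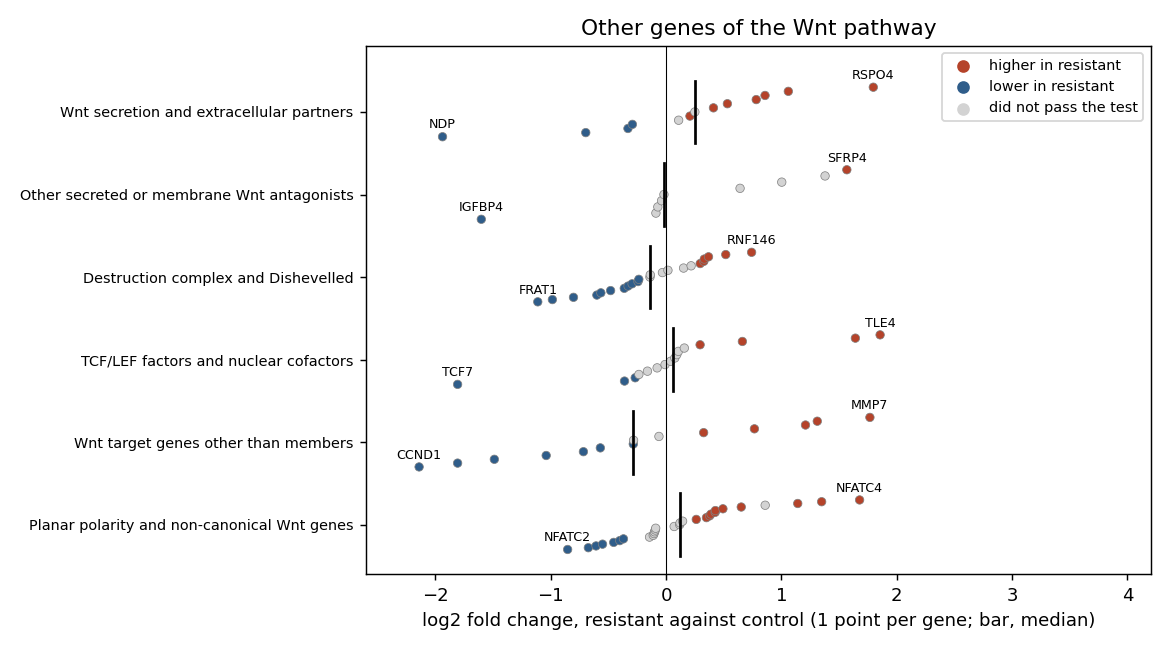
Log2 fold change of each tested gene in the 6 lists of other Wnt pathway genes, with 1 point per gene coloured by whether it passed the test and a bar at the list median. List medians run from -0.28 (targets) to 0.25 (secretion and extracellular partners), and every list has genes that rose and genes that fell.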

How the data were processed

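RNA-seq data of 3 resistant and 3 control libraries of a lung adenocarcinoma cell line were used as deposited. The authors deposited values on a signal scale, 1 table per library with 30330 genes with coordinates on GRCh38 (per the submitters' processing notes). Names of the aligner, counter and normalization tool are not given in the sources used here. In every library dividing the deposited values by that library's smallest step gave whole numbers, within 0.001, for 100% of genes, so they are read counts divided by a size factor, and whole reads were recovered. Gene symbols were matched for 30078 of the genes by Ensembl identifier, and deposited gene lengths were used per kilobase.

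Values were transformed as log2(value + 1), with a pseudocount of 1, kept at 1 or more in at least 3 libraries (24560 genes), and tested with limma-trend (limma 3.58.1, R 4.3.3, robust, two-sided, Benjamini-Hochberg over all genes, threshold 0.05). Alternatives were no filter or a minimum of 5, quantile normalization, a pseudocount of 0.1, median centring, a block for the replicate number, limma without trend, leaving out each library, and edgeR 4.0.16 (10044 genes called, 40.9%) and DESeq2 1.42.0 on recovered reads. The pipeline was tested on simulated data. With 3 libraries a group, an exact permutation test of a single value cannot go below 0.10, so none is given. Members with a 2-fold called change and the 5 highest per length are given in every library; in the other lists the 2 largest called changes in each direction are named, and all of a direction with 5 or fewer, except 1 gene that is not reported here. The members, lists and rules were chosen with earlier results of these data known. Intervals on reads cover counting error only.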

Additional observations from a re-analysis of the deposited data

How the results depend on the processing

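Of the 22 called members other than WNT11, 12 kept their call in all 15 other settings: WNT5A, WNT7B, FZD7, FZD1, FZD2, FZD6, LRP5, LGR4, AXIN2, AXIN1, DKK1 and DKK3. How many calls over all genes held in every setting was not counted, so these 12 have no background share. Of 577 values of members under other settings, 11 of them of WNT11, 517 kept direction and side of the threshold. The member counts and shares that follow include WNT11 wherever it was tested. Limma without trend left 8 members higher and 6 lower, against 12 and 11, and 3685 and 3888 of all genes, against 5010 and 5194. Leaving out a library gave 8 to 11 members higher and 8 to 11 lower, and 4321 to 4873 and 4408 to 5325 of all genes; WNT11 was not tested without a resistant library; the 8 higher came without resistant 3 and the 8 lower without control 2. Calls that were higher made up 49.1% of all genes' calls and 35.8% with median centring; for the members these were 52.2% and 40.9%, and for the other pathway genes 51.5% and 40.0%. Median centring also turned the planar polarity median from 0.12 to -0.016 and PORCN from 0.10 to -0.032.

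The other values that changed sign belong to members that did not pass the test. Leaving out each library in turn gave -0.26 to 0.030 for WNT10B (positive without control 1), -0.75 to 0.0035 for WNT3A (positive without resistant 1), -0.057 to 0.0037 for FZD3 (positive without control 2) and -0.18 to 0.80 for LGR6 (negative without control 2). WNT5B, at 0.035, was at -0.0035 with quantile normalization, -0.10 with median centring, -0.20 with edgeR and -0.20 with DESeq2, and from -0.36 to 0.52 with a library left out, being negative without resistant 1, resistant 2, control 1 or control 2. The cause was not tested. The replicate numbers are shared between groups, but over all genes tested same-numbered libraries did not deviate together (correlations -0.0015, 0.00011 and 0.0067). These correlations take all genes at once, so they cannot show whether such libraries shared a culture or a day. With the replicate block, 12 members were higher and 11 lower, and 5003 and 5172 of all genes, against 5010 and 5194. Low counts limit WNT8B, WNT11, WNT16 and DKK3, and the 4 untested ligands had at most 3 reads in a group.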
